A study of Mus musculus with 9 samples.

Results

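Open chromatin was compared between a p53R172H/- line and a p53R245W/- line, both derived from primary mouse osteosarcomas, which are malignant bone-forming tumours. Each line was measured by ATAC-seq in 3 libraries, an assay that uses the Tn5 transposase to place sequencing adaptors in accessible DNA. A p53-/- line with 3 further libraries served as an outside reference, and all 9 samples were grown in DMEM with 10% serum. In both mutant genotypes the other allele is written as a minus, so neither line is labelled as carrying wild-type p53. The labels give 1 line for each genotype, so genotype and line cannot be told apart. Whether the 3 libraries of a line are separate cultures is not stated in the labels, so p-values measure only the spread between these libraries, which may be technical. Each library is a bulk sample, so a region open in fewer cells and one less open in every cell cannot be told apart. All 9 peak lists were merged wherever peaks overlapped by 1 bp or more, which gave 124230 regions, 115111 of them with a peak in at least 1 of the 6 mutant libraries. The comparison turned on 14244 regions called in all 3 R172H libraries and no R245W library, 17170 regions called in all 3 R245W libraries and no R172H library, and 42811 shared regions called in all 6. These are named R172H-alone, R245W-alone and shared regions below, without regard to the p53-/- line.

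The protein p53 is a transcription factor that binds DNA through its core domain and restrains proliferation. R172H changes a residue that holds that domain in shape and is usually classed as a structural mutant, whereas R245W changes a residue in the DNA-binding surface and is usually classed with the contact mutants. Mutant p53 proteins are known to associate with other transcription factors at chromatin. Enhancers, the regulatory elements away from gene starts, open in a cell-type-dependent way, while the starts of widely expressed genes are open in most cells. In bone, the Runx factors, Sp7 and Mef2c direct osteoblasts, and Dmp1, Mepe and Spp1 are genes of mineralised matrix.

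The promoters of 7 genes whose start sites separated the lines are shown first, because the start is the element that ties a peak to a gene. Each is the 250 bases before a RefSeq start site in GRCm38.p6, the build of the peak lists, printed 5′ to 3′ on the gene's strand. Igf2, a growth factor gene, Aldh1a2, an enzyme of retinoic acid synthesis, and C1qtnf7, a secreted protein of the C1q and TNF family, had a peak within 1000 bp of this start in 3 of 3 R172H and 0 of 3 R245W libraries. Irx2 and Sox2, transcription factors of embryonic patterning and of stem and neural cells, Dmp1, and the upstream start of Runx3 had one in 0 of 3 R172H and 3 of 3 R245W libraries. Capitals mark matches on either strand to AP-1 (TGANTCA), RUNX (TGTGGT), TEAD (GGAATG), ETS (CCGGAA), homeobox (TAATTA), GC box (GGGCGG), E-box (CAGCTG) and NFY (CCAAT) letters, which are descriptions of sequence and not binding sites. Matches were allowed to overlap, and overlapping matches share their capitals.
Igf2 (chr7:142658805-142659054, minus strand): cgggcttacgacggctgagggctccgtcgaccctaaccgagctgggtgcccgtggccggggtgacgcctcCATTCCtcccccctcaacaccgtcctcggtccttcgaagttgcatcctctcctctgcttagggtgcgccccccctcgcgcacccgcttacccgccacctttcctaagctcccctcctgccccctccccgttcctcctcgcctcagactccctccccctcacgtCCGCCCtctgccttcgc
Aldh1a2 (chr9:71215539-71215788, plus strand): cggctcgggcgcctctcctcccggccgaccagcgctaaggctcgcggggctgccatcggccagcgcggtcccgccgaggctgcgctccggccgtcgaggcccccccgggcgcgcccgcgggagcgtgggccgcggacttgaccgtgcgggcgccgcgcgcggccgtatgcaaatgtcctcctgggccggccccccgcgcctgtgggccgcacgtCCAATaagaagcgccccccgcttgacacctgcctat
C1qtnf7 (chr5:43515319-43515568, plus strand): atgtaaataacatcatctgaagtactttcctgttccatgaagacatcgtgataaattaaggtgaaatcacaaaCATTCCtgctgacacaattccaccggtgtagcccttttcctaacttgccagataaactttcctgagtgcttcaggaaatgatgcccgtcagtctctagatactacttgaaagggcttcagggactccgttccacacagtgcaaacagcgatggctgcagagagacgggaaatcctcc
Irx2 (chr13:72628570-72628819, plus strand): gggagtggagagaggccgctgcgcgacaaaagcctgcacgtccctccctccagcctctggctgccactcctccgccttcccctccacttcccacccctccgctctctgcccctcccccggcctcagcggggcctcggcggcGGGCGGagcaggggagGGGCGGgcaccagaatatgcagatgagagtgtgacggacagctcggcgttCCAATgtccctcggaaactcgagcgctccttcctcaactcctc
Sox2 (chr3:34649745-34649994, plus strand): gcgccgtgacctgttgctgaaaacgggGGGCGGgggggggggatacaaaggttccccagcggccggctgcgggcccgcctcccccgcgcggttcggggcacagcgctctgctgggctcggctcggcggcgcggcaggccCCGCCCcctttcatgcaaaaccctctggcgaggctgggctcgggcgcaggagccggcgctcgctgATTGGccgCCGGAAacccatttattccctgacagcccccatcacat
Dmp1 (chr5:104202367-104202616, plus strand): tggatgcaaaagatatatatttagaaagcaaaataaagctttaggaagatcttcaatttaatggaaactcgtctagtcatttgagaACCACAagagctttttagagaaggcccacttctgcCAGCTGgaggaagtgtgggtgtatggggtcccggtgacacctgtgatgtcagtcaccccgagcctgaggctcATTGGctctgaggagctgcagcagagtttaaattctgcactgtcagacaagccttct
Runx3 (chr4:135120395-135120644, plus strand): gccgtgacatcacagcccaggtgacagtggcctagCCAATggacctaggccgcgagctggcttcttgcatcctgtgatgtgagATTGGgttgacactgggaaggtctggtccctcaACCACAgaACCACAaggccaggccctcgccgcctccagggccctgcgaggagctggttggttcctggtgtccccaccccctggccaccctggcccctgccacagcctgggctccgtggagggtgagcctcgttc

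Within the 250 bases, the upstream Runx3 promoter held 2 RUNX and 2 NFY matches and the Dmp1 promoter held 1 RUNX match. Irx2 and Sox2 each held 2 GC boxes, and Igf2 and C1qtnf7 each held 1 TEAD match. Over whole windows of 300 bases, AP-1 letters occurred in 8.92% of 314 start sites open in R172H alone, 13.6% of 529 open in R245W alone, 4.60% of 12162 open in all 6 and 6.99% of all 21262 start sites. RUNX letters occurred in 16.2%, 18.1%, 11.2% and 15.0% of the same sets. GC boxes occurred in 38.9% and 36.3% of the sites open in a single line, against 67.7% of those open in all 6, and ETS letters in 9.24% and 7.56% against 28.3%. TEAD letters stood at 18.2% and 15.7%, against 13.6% of all start sites. NFY letters stood at 34.7% and 34.0%, against 38.2%, the homeobox letters at 3.50% and 3.59%, against 4.53%, and the E-box letters at 21.3% and 20.2%, against 15.6%. Mean GC content was 56.3% and 55.1% in the sites of a single line, 62.0% in those open in all 6 and 56.2% over all sites.

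Markers of the labelled cell type were open in both lines. Of 10 osteoblast lineage markers, 8 had an open start in all 6 libraries, and Bglap and Ibsp had none in any. Over all protein-coding genes, 12760 of 21883 had a start open in all 6. All 5 mesenchymal markers were open in all 6. Markers of other cell types were mixed. Ptprc and Cd3e of blood cells, Pecam1, Cdh5 and Tek of endothelium, Cdh1 and Krt18 of epithelium, Myog of muscle and Neurod1 and Rbfox3 of neurons had no open start in any of the 6. Of 6 blood markers, however, 1 was open in all R172H and 3 in all R245W libraries. The same counts were 1 and 3 of 5 epithelial, 1 and 1 of 4 endothelial and 3 and 2 of 5 chondrocyte markers. For 4 muscle and 4 neural markers they were 0 and 1 each. The start of Trp53 itself was open in all 6 (peak percentiles within the library, of 91.4, 91.1 and 93.7 in R172H and 87.0, 89.2 and 88.3 in R245W; limma, adjusted p = 1), and such a peak does not check the labelled substitutions. The R172H libraries held 72840, 74352 and 72907 peaks and the R245W libraries 76868, 79424 and 75314, means of 73366 ± 854 and 77202 ± 2075 (SD, n = 3). Covered sequence was 55.6 ± 1.75 against 61.2 ± 1.32 Mb, and the commonest background pile-up at the summits, a relative measure of depth, 4.98 ± 0.33 against 6.06 ± 0.376 reads (SD, n = 3). These measures did not overlap between the lines (exact permutation test, two-sided p = 0.1, the smallest that 3 against 3 libraries allow). A region without a call is one without a peak at the depth of its library, and the part of depth in the calls was not tested beyond the shortened lists described with the counts.

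At the regions called in a single line, the lines parted mainly away from gene starts, and the p53-/- line shared more of the regions called in R245W alone. R172H-alone regions made up 12.4% of the 115111 regions called in the mutant lines, R245W-alone regions 14.9% and shared regions 37.2%. Only 3.42% of R172H-alone and 4.57% of R245W-alone regions lay within 1000 bp of a gene start, against 28.9% of shared regions, and their median distances to a start were 42.9, 32.5 and 12.9 kb. The p53-/- line had no peak in 85.7% of the R172H-alone regions and a peak in all 3 libraries in 7.48%. Among R245W-alone regions those shares were 41.9% and 44.9%. These calls did not enter the choice of the regions, but the same 3 p53-/- libraries serve both directions.

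Most such regions ranked in the lower part of their lists. A percentile here is the rank of a peak's deposited −log10 q within its own library, with 100 as the strongest, and the lowest of the line's 3 percentiles describes a region. Its median was 32.9 in R172H-alone, 32.0 in R245W-alone and 54.3 in shared regions. It exceeded 50 in 28.7%, 26.6% and 54.4% of them, and 90 in 97 R172H-alone and 46 R245W-alone regions. Just outside the rule stood 4762 regions called in 2 R172H and no R245W library, 2085 called in 3 and 1, 4853 called in no R172H and 2 R245W libraries, and 3075 called in 1 and 3. The choice is a description, and no p-value is given for a region, since 3 against 3 libraries cannot go below 0.1. With all lists shortened to the 65199 strongest peaks, the counts were 14368 and 14958, an R172H share of 49.0% in place of 45.3%.

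**Figure D1:**
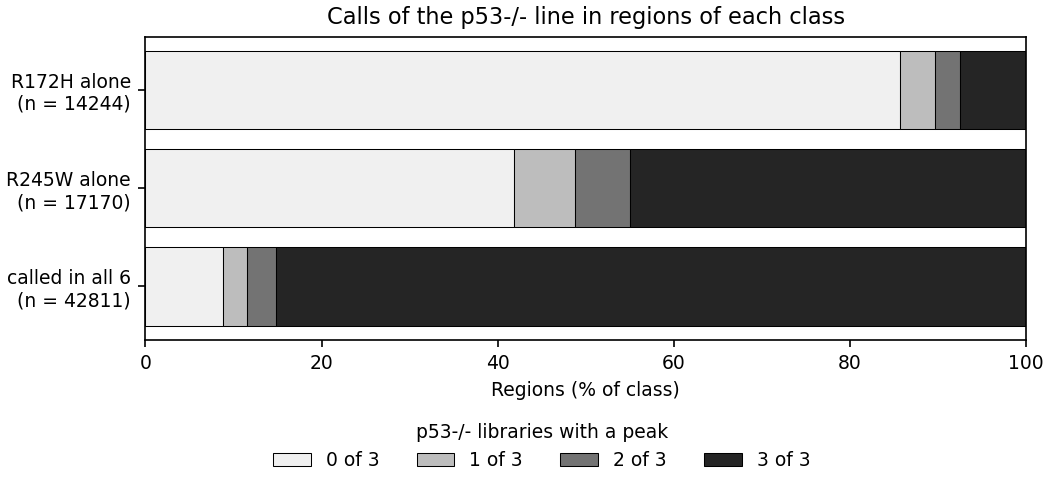
Share of regions (horizontal axis, % of the class) by the number of p53-/- libraries with a peak, for regions called in R172H alone, in R245W alone and in all 6 mutant libraries. The p53-/- line had no peak in 85.7% of R172H-alone but in 41.9% of R245W-alone regions.

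The strongest R172H-alone region lay at an annotated end of Wt1, a zinc finger transcription factor of kidney and gonad development (chr2:105126149-105127670). Its pile-up, the number of fragments stacked at the summit, was 597, 597 and 582 in the 3 R172H libraries, at percentiles of 99.2, 98.6 and 98.9, with no peak in any other of the 9. Another region inside Wt1, at chr2:105133933-105135053, was R172H-alone as well, and of all regions assigned to the gene 5 were R172H-alone and 2 R245W-alone. Another end of Wt1 was open in all 9 libraries, so the gene was not without a peak in the other lines. Others in this order lay inside Sgms1 (pile-ups of 459, 495 and 452), a sphingomyelin synthase, St8sia1 (458, 530 and 500), a ganglioside synthase, Ift81 (378, 400 and 398), a component of ciliary transport, and Wwox (454, 480 and 441), an oxidoreductase at a fragile site. Those near Speer4f1, Lbp, which encodes a lipopolysaccharide-binding protein, and Ndufa6, a respiratory chain subunit, lay outside gene spans. Of these 8 regions, 6 had no p53-/- peak and those in Wwox and near Ndufa6 had one in 1 library, at a percentile of 18.8 and 14.3.

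R245W-alone regions of the highest rank were shared with the p53-/- line in 7 of 8 cases. The first lay in Elfn2, a synaptic adhesion protein gene, with pile-ups of 446, 485 and 447 in R245W and 391, 430 and 380 in p53-/- libraries. The exception lay 24922 bp from Ccr1, a chemokine receptor gene, with pile-ups of 491, 514 and 492 in R245W and no p53-/- peak. The remaining ones were at or near Pef1, Sohlh2, Cdc45, a replication factor, Usp12, a deubiquitinase, Tmem131 and Wnt4, a Wnt ligand. Their R245W percentiles lay between 93.5 and 98.2.

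Regions were then assigned to the nearest end of a protein-coding gene within 50000 bp, which placed 73.1% of them. More R172H-alone than R245W-alone regions fell to 3335 of 17411 genes with regions (19.2%), and the reverse held for 5059 (29.1%). C1qtnf7 led with 13 R172H-alone regions and 0 R245W-alone, followed by Cradd, an adaptor of apoptosis signalling, with 11 and 2, Parp8 with 9 and 0, and the adhesion receptor gene Adgrd1 with 9 and 1. Ano6, a lipid scramblase and channel, Arhgap42, a GTPase-activating protein, Gata6, a transcription factor of endoderm and heart, and Gpam, an enzyme of glycerolipid synthesis, each had 7 and 0. On the other side stood Zfhx4 with 0 R172H-alone and 10 R245W-alone regions, Atxn1, Runx3 (each 1 and 10), the collagen gene Col15a1 (3 and 10), and Ece1, Mbnl1 and Runx1 (each 1 and 8). These genes were picked by this number, so it describes them. The assignment distance mattered: at the shortest one tried the net of C1qtnf7 was 4 and that of Runx1 -1.

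Igf2 was open in the R172H line alone at its start and at regions around it. All 7 of its R172H-alone regions lacked a peak in R245W and p53-/- libraries, and no R245W-alone region was assigned to it. At the start site printed above, the R172H percentiles were 68.4, 71.4 and 69.6, and the fold over local background at the summit was 5.9, 6.3 and 6.0. A second start, the last of 4 in the table, had percentiles of 52.9, 59.5 and 58.5, and the 2 upstream starts had no peak in any library. Aldh1a2 had 7 R172H-alone regions and 1 R245W-alone, and its start reached percentiles of 80.2, 80.7 and 80.4 in R172H with none elsewhere. C1qtnf7 reached 76.3, 76.2 and 78.0 at its start, and 12 of its 13 regions had no p53-/- peak. At these 3 starts neither the R245W nor the p53-/- line had a peak. Those of Igf2 and C1qtnf7 lie in stretches of 356 and 149 kb with no R245W peak.

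Runx3 showed the opposite order and a split between its start sites. At the upstream start printed above, R245W libraries had percentiles of 93.9, 93.4 and 92.7, p53-/- libraries 99.2, 98.8 and 98.4, and R172H libraries no peak. At the downstream start, 31900 bp away, all 9 libraries had a peak. There the percentiles were 46.0, 41.2 and 48.5 in R172H, 85.2, 84.2 and 84.3 in R245W and 82.4, 78.7 and 77.5 in p53-/-. The lines did not overlap, and the shift of -39.34 ± 2.73 percentile points (SE, R172H minus R245W) passed the limma test (adjusted p = 4.53e-07). Of the 10 R245W-alone regions of Runx3, 5 were called in all 3 p53-/- libraries and 4 in none.

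Such splits between start sites were seen in other genes too. RefSeq starts at least 2 kb apart were given for 1287 genes. In 35 of them (2.72%) a site was open in R172H alone while another, at least 2 kb away, was open in all 6 libraries, and in 73 (5.67%) the same held for R245W. The p53-/- libraries were all open at 5 of the former and 36 of the latter sites, and none was open at 27 and 26. Besides Runx3, examples were picked once their values were seen and do not follow the order of rank. A site of Rab43, at 95.8, 97.5 and 97.0 in R245W, ranked above that of Runx3. The inner site of Slc20a1, a phosphate transporter, stood at 90.8, 92.5 and 91.6 in R245W with no R172H peak. Its other site stood at 95.4 or above in all 6. Pik3cd, a lipid kinase subunit, had percentiles of 85.3, 83.7 and 80.7 at its most downstream site in R245W, 95.7, 96.0 and 95.3 in p53-/- and no peak in R172H. Bcl6, a transcriptional repressor, had 73.5, 75.2 and 77.6 at one of its sites in R245W and no R172H peak. In R172H, an inner site of Slc25a25, a mitochondrial carrier, stood at 84.4, 85.4 and 85.5 with no peak in the other 6 libraries. The same held for an inner site of Hmgxb4, at 76.5, 78.3 and 77.2. Between them in rank, a site of Pacsin2 stood at 80.6, 81.1 and 77.7 in R172H with no R245W peak. It had a peak in 2 p53-/- libraries, at 4.3 and 16.1.

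Taking any start of a gene, 327 of 21883 protein-coding genes (1.49%) were open in R172H alone and 523 (2.39%) in R245W alone. For this count a peak had to reach within 1000 bp of a RefSeq start site or, for 4392 genes not in the start-site table, of either end of the gene. Not all came with a region of the same class: 233 of 327 and 374 of 523 did, and at the others the window touched only regions of other classes. The p53-/- line was open in 3 of 3 libraries at 39 of the former genes (11.9%) and 178 of the latter (34.0%). With lists of equal length the counts were 399 and 530.

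Among the starts of highest rank open in R172H alone were those of Dnajc5, a vesicle chaperone, Dmac2l, Tspyl2, Clcn4, Atl1, Map4k5 and Nf1, the Ras inhibitor, and all of these were open in the p53-/- line. At Dnajc5 a shared region called in all 6 libraries also reached the start, with a shift of 0.81 points that did not pass (limma, adjusted p = 1). Dmac2l, Atl1 and Map4k5 lie in an interval of 353 kb on chromosome 12 with no R245W peak, and so does Sav1 of the Hippo pathway. The interval held 14 regions with a peak in every R172H library and 9 with one in every p53-/- library. DNA copy number was not measured. The Nf1 start had percentiles of 93.5, 92.6 and 92.3 in R172H, 94.4, 94.5 and 94.7 in p53-/- and no R245W peak. It lies in 230 kb without an R245W peak, where 8 regions were called in all R172H and 6 in all p53-/- libraries. Outside that stretch, 2 shared regions were assigned to Nf1 by the nearest gene end, which does not place them inside the gene. The Tspyl2 start lies in a similar stretch of 154 kb on chromosome X.

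Of the 8 starts of highest rank open in R245W alone, that of Irx2 stood at 92.7, 92.9 and 92.8 in R245W, with no peak in R172H or p53-/- libraries. The cannabinoid receptor gene Cnr1 stood at 93.0, 93.4 and 92.3, against 28.5, 15.7 and 18.4 in p53-/- and no peak in R172H. Rorb, a nuclear receptor, stood between 89.9 and 91.0, against 50.4, 36.9 and 46.7 in p53-/- and none in R172H. The p53-/- line thus lay between the mutant lines at Cnr1 and Rorb by rank. Galnt13, a glycosyltransferase, Atf7ip2, Cavin4, a caveolar protein of muscle, Catsper1, a sperm ion channel, and Cyb561d1 completed the 8, and of these Cyb561d1 had no p53-/- peak. A shared region called in all 6 libraries also reached the starts of Catsper1 and Cyb561d1. At Catsper1 it ranked higher in R245W (shift -46.05 points, limma, adjusted p = 7.47e-08), and at Cyb561d1 its shift of -3.07 points did not pass (limma, adjusted p = 1).

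**Figure D2:**
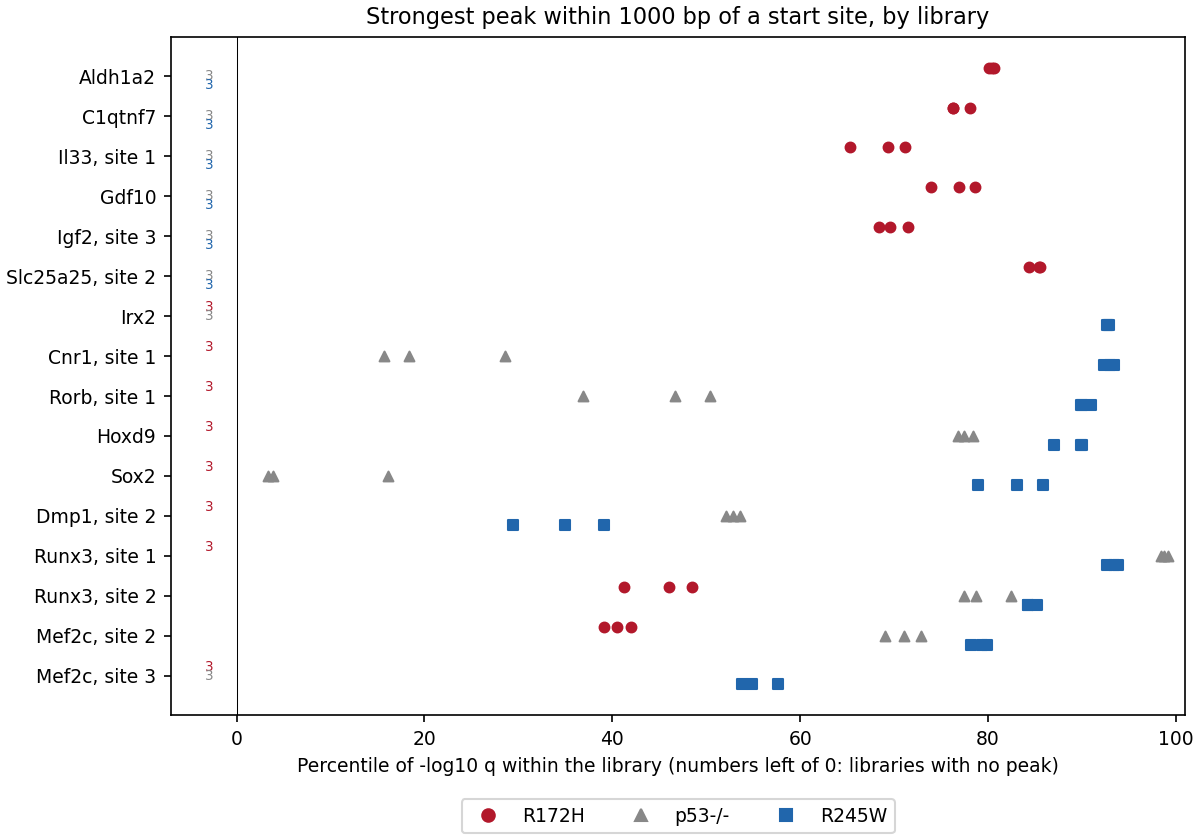
Percentile of −log10 q within the library (horizontal axis) of the strongest peak within 1000 bp of 16 start sites (rows, numbered in table order where a gene has several), for 3 libraries of each line. Points are libraries, and digits left of 0 count libraries with no peak. At the upper 6 sites only R172H libraries had a peak, and at the first Runx3 site the R245W and p53-/- libraries stood above 92 with no R172H peak.

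Missing calls came in stretches on both sides. A neighbouring region of the same class was found beside 35.2% of R172H-alone and 35.6% of R245W-alone regions, whereas 20.2% and 26.1% of shared regions had such a neighbour. Runs of 5 or more consecutive regions numbered 66 for R172H alone and 90 for R245W alone. The longest of all, 13 regions over 333 kb (chromosome 3, 34333244 to 34665752), was R245W-alone and spans Sox2, and 10 of its regions were called in all 3 p53-/- libraries. R172H libraries had no peak from 34089087 to 35225190 on that chromosome, 1136 kb in which 26 regions were called in all R245W libraries. At the Sox2 start the R245W percentiles were 83.0, 79.0 and 85.8 and those of the p53-/- line 3.4, 16.1 and 3.9. The stretch around Irx1 and Irx2 on chromosome 13 (71459233 to 73160160, 1701 kb) held 24 regions called in all R245W libraries, 3 called in all p53-/- libraries and no R172H peak.

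Conversely, R245W libraries had no peak in 271 kb at Tshz2, a zinc finger gene of development (chromosome 2, 169634455 to 169905029). All 3 R172H libraries had a peak in 17 regions there, and no region was called in all 3 p53-/- libraries. The same was seen in 306 kb with Gdf10, a growth factor of the TGF-beta superfamily (chromosome 14, 33633333 to 33939115), with 15 such regions. The start of Gdf10 stood at 74.0, 78.7 and 76.9 in R172H. Genes of a stretch are not separate differences.

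At the 42811 shared regions, the strength of the peaks was compared as a rank shift, the mean percentile of R172H minus that of R245W. Of these, 4795 (11.2%) ranked higher in R172H and 6202 (14.5%) higher in R245W, tested with limma for a shift beyond 10 points at an adjusted p of 0.05. The median shift was 29.57 points in the former and -30.44 in the latter, with a median SE of 3.67 and 3.60 points. Over all shared regions the median SE was 2.87 points. The median SD between libraries, also over all shared regions, was 2.29 points in R172H and 2.27 in R245W. Shifts of 40 points or more were found in 1213 and 1708 regions. Shared regions at gene starts were less involved: 9.62% of 12372 passed, against 32.2% of 30439 elsewhere. The former also ranked higher, at a median percentile of 88.5 against 57.2, and the part of rank in this contrast was not tested. On the scale of log2 pile-up, chosen after seeing the data, where the median over all shared regions was 0.18, 6531 regions were higher in R172H and 5176 in R245W by more than 1.5-fold. Of all passing regions 43.6% were higher in R172H by rank and 55.8% by pile-up, so the majority side depended on the scale. No region passed in opposite directions on both scales.

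The p53-/- line, which had no part in that test, lay nearer to R245W in both directions. Of the regions higher in R172H and called in all p53-/- libraries it was nearer to R245W in 2178 of 3078 (70.8%), and of those higher in R245W in 3727 of 5489 (67.9%). Among shared regions that did not pass, that share was 54.9%. No p53-/- library called 24.0% of the regions higher in R172H, against 7.11% of those higher in R245W.

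**Figure D3:**
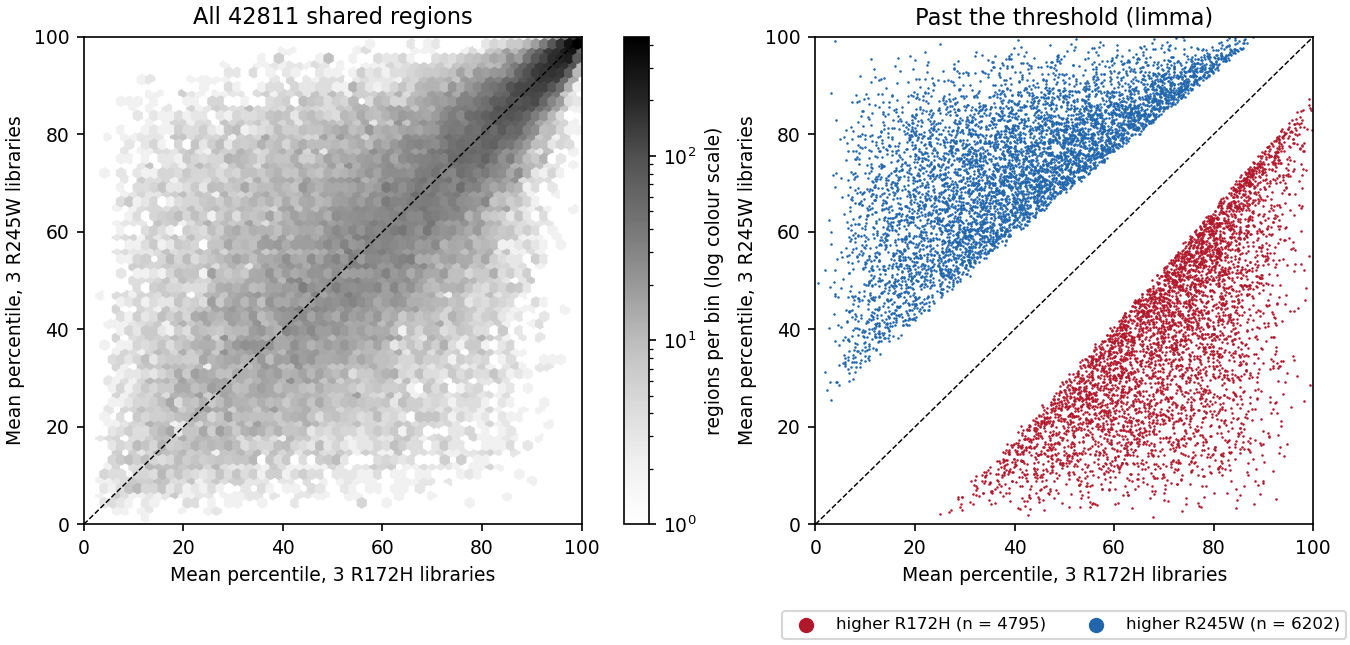
Mean percentile of −log10 q in 3 R245W libraries (vertical axis) against 3 R172H libraries (horizontal axis) for the 42811 shared regions (left, density on a log colour scale) and for the regions past the limma threshold (right). The dashed line marks equal rank; 4795 regions lie in the R172H direction and 6202 in the R245W direction.

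The largest shift of all was in Ppard, a nuclear receptor of fatty acid metabolism (chr17:28259475-28260622). Percentiles there were 2.80, 8.16 and 0.98 in R172H, 98.8, 99.3 and 99.0 in R245W and 91.8, 92.5 and 94.8 in p53-/-. Pile-ups were 29, 36 and 27 against 543, 641 and 574, and the shift of -95.05 ± 3.49 points (SE) had an adjusted p of 9.46e-09 with limma. A region in Sh3bp2, an adaptor gene known for its role in jaw bone disease, had pile-ups of 22, 23 and 21 in R172H, 400, 468 and 412 in R245W and 541, 588 and 595 in p53-/-. Regions in Ptar1, Cobll1, Aste1, Tbc1d9 and Dcbld2 and one near Cldn4, a tight junction gene, followed with shifts from -85.33 to -79.46 points. At all 8 regions the p53-/- libraries had a peak.

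In the other direction a region in Niban3 led (chr8:71602131-71603665). Its pile-ups were 304, 376 and 302 in R172H and 17, 26 and 20 in R245W, with no p53-/- peak, and the shift was 87.24 ± 3.89 points (SE, limma, adjusted p = 9.46e-09). Regions in Eogt, a glycosyltransferase, Rab3c, a vesicle GTPase, Piezo1, a mechanically gated channel known to act in bone, Krt76, a keratin, and Ldb3, a muscle protein, and near Fads1, a fatty acid desaturase, shifted by 80.75 to 83.90 points. The last of the 8 covered the start of Khk, ketohexokinase of fructose metabolism, with percentiles between 92.8 and 94.96 in R172H, 12.4, 11.4 and 18.3 in R245W and no p53-/- peak. Of these 8 regions, 6 had no p53-/- peak at all, and Rab3c and Krt76 had one in 2 and 1 libraries.

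Regulators and matrix genes of bone stood mostly on the R245W side. Of 16 osteoblast lineage factors, 9 had more R245W-alone regions, 5 more R172H-alone and 2 neither, with a median net of -1 region against 0 over all genes. Over all genes with regions the shares were 29.1% and 19.2%. Counted as regions, the list had 25 R245W-alone and 9 R172H-alone. Of 19 matrix and mineralisation genes with regions, 10 had more R245W-alone and 2 more R172H-alone regions, with the same median of -1. The list of 4 Runx family genes, Cbfb included, had 20 R245W-alone and 5 R172H-alone regions, of which Runx1 and Runx3 held 18 and 2.

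Mef2c, a transcription factor of muscle and bone, had 5 R245W-alone regions and 0 R172H-alone, and the shared region at its middle start of 3 shifted by -38.59 ± 2.86 points (limma, adjusted p = 9.11e-07). The most downstream start of Mef2c stood at 54.8, 57.6 and 53.8 in R245W and had no peak in R172H or p53-/- libraries. Sp7, the factor downstream of Runx2 in osteoblasts, had 3 R245W-alone regions and none in R172H alone. A shared region at an end of Sp7 stood at 42.2, 25.3 and 39.8 in R172H against 61.7, 58.5 and 63.8 in R245W (limma, adjusted p = 0.00901). Zfp521 was the exception among the starts of the list, at 89.4, 90.1 and 90.1 in R172H and 63.8, 68.4 and 67.3 in R245W (limma, adjusted p = 7.38e-06). Runx2, the central osteoblast factor, had 3 R172H-alone and 2 R245W-alone regions, and its start did not pass (shift -11.27 ± 1.77 points, limma, adjusted p = 0.647).

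Dmp1, a gene of osteocytes, had its second start open at 39.1, 35.0 and 29.4 in R245W and 53.5, 52.8 and 52.1 in p53-/-, with no R172H peak. All 5 of its R245W-alone regions were called in every p53-/- library, and the neighbouring matrix gene Mepe had 4 R245W-alone and 0 R172H-alone regions. A shared start region is the strongest shared region reaching within 1000 bp of a start. Of 13 such regions of the matrix list, 2 ranked higher in R172H and 2 in R245W. Over all genes with a shared start region those shares were 4.18% and 3.94% of 12861. Spp1, osteopontin, stood at 36.9, 26.8 and 28.5 in R172H against 60.6, 68.2 and 64.0 in R245W (limma, adjusted p = 0.000167), and Enpp1, a regulator of mineralisation, also ranked higher in R245W (shift -15.30 points, limma, adjusted p = 0.0417). Sparc, osteonectin, moved the other way, at 86.8, 86.4 and 88.2 against 62.1, 65.4 and 60.1 (limma, adjusted p = 1.46e-05), and so did Bglap2, an osteocalcin gene (shift 25.85 points, limma, adjusted p = 0.00967). Ank, a pyrophosphate transporter of bone, had 6 R172H-alone and 1 R245W-alone regions. Tnfsf11, the ligand that drives osteoclast formation, had 5 R245W-alone regions and 0 R172H-alone, yet its start ranked higher in R172H, at 63.0, 60.9 and 61.01 against 37.2, 32.1 and 24.5 (limma, adjusted p = 0.000612).

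By number of genes, patterning lists also had more on the R245W side. By number of regions, the split of the limb and skeletal list was near that over all genes. Of 40 limb and skeletal patterning genes with regions, 23 had more R245W-alone and 10 more R172H-alone regions, with a median net of -1. Over all genes with regions those shares were 29.1% and 19.2%. Regions of the patterning genes numbered 45 R172H-alone and 62 R245W-alone, beside 8447 and 11327 over all genes. At shared starts of the list 4 ranked higher in R172H and 7 in R245W. Starts of Six2 and Alx1 were among those open in R245W alone and that of Pax1, a factor of the vertebral column, in R172H alone. Six2, a factor of kidney and skull, stood at 47.4, 58.7 and 47.2 in R245W, with no peak in the 6 other libraries. Of 38 Hox genes, 15 had more R245W-alone and 5 more R172H-alone regions, and the median was 0 as over all genes. Regions of the Hox list numbered 14 R172H-alone and 23 R245W-alone. Hoxd9 stood between 87.1 and 90.04 in R245W and 76.8, 77.4 and 78.4 in p53-/-, and Hoxa9 at 76.0, 72.3 and 78.0 and 63.3, 62.8 and 67.2. Neither had an R172H peak, and Hoxd1 and Hoxd13 were also open in R245W alone, whereas Hoxb3 was open in R172H alone at 56.7, 54.8 and 52.3. Shared Hox starts passed in both directions, 3 and 3: Hoxa11, Hoxa4 and Hoxd8 ranked higher in R245W, and Hoxb2, Hoxb13 and Hoxc13 higher in R172H. Hoxc13 stood at 87.0, 85.4 and 87.3 against 49.5, 54.4 and 49.1 (limma, adjusted p = 4.84e-07).

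The largest share on the R172H side, 61.9%, was that of semaphorins, slits, netrins and their receptors, which guide axons and vessels. More R172H-alone regions were found at 13 of its 21 genes with regions and more R245W-alone at 6. Over all genes with regions those shares were 19.2% and 29.1%. The median net of the guidance list was 1, and its regions numbered 47 and 32. Sema6d had 5 R172H-alone regions and 0 R245W-alone, and its start was open in R172H alone at 33.7, 18.8 and 27.4, as was that of Sema3b. The receptor gene Nrp1 had 6 and 2. Unc5b, a netrin receptor, stood against this with 0 and 5. Slit3, a guidance ligand also made by osteoblasts and osteoclasts, ranked higher in R172H at its start (shift 44.10 ± 2.53 points, limma, adjusted p = 6.48e-08), whereas Robo2, a slit receptor, and Slit1 ranked higher in R245W.

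Signalling genes stood on both sides. Over all genes with regions, 19.2% had more R172H-alone and 29.1% more R245W-alone regions. In the retinoic acid list 7 genes (36.8%) stood on each side, with 30 R172H-alone and 19 R245W-alone regions. Besides Aldh1a2 the retinol importer gene Stra6 had 5 and 0 and the receptor gene Rarb 4 and 0. Of 39 Wnt pathway genes, 15 (38.5%) had more R172H-alone and 13 (33.3%) more R245W-alone regions. Starts of Rspo1, Wnt3a and Wnt9b were open in R172H alone and that of Wnt10b, a ligand that favours bone formation, in R245W alone. In the insulin-like growth factor axis Igf2 was the sole gene with a start open in 1 line. Of the BMP and TGF-beta list, the Bmp7 start stood at 89.0, 89.2 and 89.7 in R172H with no R245W peak, and Bmp5 had 0 R172H-alone and 6 R245W-alone regions. Among receptor tyrosine kinases Egfr had 7 R172H-alone and 1 R245W-alone regions, and Epha4 5 and 0. Egfr's start did not pass (shift 9.91 ± 1.49 points, limma, adjusted p = 1). The Epha4 start stood at 82.4, 84.9 and 84.2 in R172H and 21.4, 24.7 and 30.7 in R245W (limma, adjusted p = 4.86e-08). Fgf7 had 0 and 7, and Myc 4 and 0.

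Starts of inflammatory, epithelial and muscle genes were open in a single line in a few cases. Of 29 cytokine and chemokine genes, Il33 and Il1rn, an alarmin and an interleukin-1 antagonist, were open in R172H alone. Another 4, among them Cxcl3 and Lif, were open in R245W alone. Over all protein-coding genes those shares were 1.49% and 2.39%. At Lif a shared region called in all 6 libraries also reached the start, with a shift of 7.47 ± 2.50 points toward R172H that did not pass (SE, limma, adjusted p = 1). The first start of Il33 stood at 65.3, 69.3 and 71.1 in R172H. Trp63, a p53 relative of epithelial stem cells, stood at 68.1, 71.4 and 75.1 in R245W, and Myocd, the coactivator of smooth muscle genes, at 79.2, 84.4 and 81.8. Neither had a peak in the other 6 libraries. Dsp and Epcam, of epithelial junctions, were open in R245W and not in R172H, and Epcam was also open in 2 p53-/- libraries. Cdh1 was open in none of the 6 mutant libraries. Of the skeletal muscle list 7 of 12 genes with regions (58.3%) stood on the R245W side and 2 (16.7%) on the R172H side. Of the haematopoietic list 7 (53.8%) and 2 (15.4%) of 13 did. Over all genes with regions those shares were 29.1% and 19.2%. Lcp1, an actin bundler of blood cells and many tumours, ranked higher in R245W at its start (shift -50.99 ± 3.33 points, limma, adjusted p = 1.34e-07).

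At the starts of p53 targets, calls of a difference between the lines were near the background of all genes. Of 30 canonical targets, 28 had a start open in all 6 libraries, beside 12760 of all 21883 genes. The start of 1, Gdf15, was open in R245W alone, beside 2.39% of all genes. A shared region called in all 6 libraries also reached the start of Gdf15, and its shift of 10.72 ± 1.48 points toward R172H did not pass (SE, limma, adjusted p = 0.806). Of 29 shared start regions that of Eda2r, a receptor of the TNF family on chromosome X, passed (shift -33.08 ± 3.32 points, limma, adjusted p = 3.23e-05), beside 3.94% of all genes in that direction. Cdkn1a, the cell cycle inhibitor, stood at 83.4, 83.3 and 83.9 in R172H and 87.9, 85.1 and 84.8 in R245W, and did not pass (limma, adjusted p = 1). More R245W-alone regions were found at 11 targets and more R172H-alone at 3, a share of 36.7% and 10.0%. Over all genes with regions those shares were 29.1% and 19.2%. All 24 cell cycle genes had a start open in all 6. By regions, 5 (20.8%) of them stood on the R245W side and 3 (12.5%) on the R172H side. Among genes reported elsewhere as mutant p53 targets, the sides held 7 each of 31 (22.6%).

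**Figure D4:**
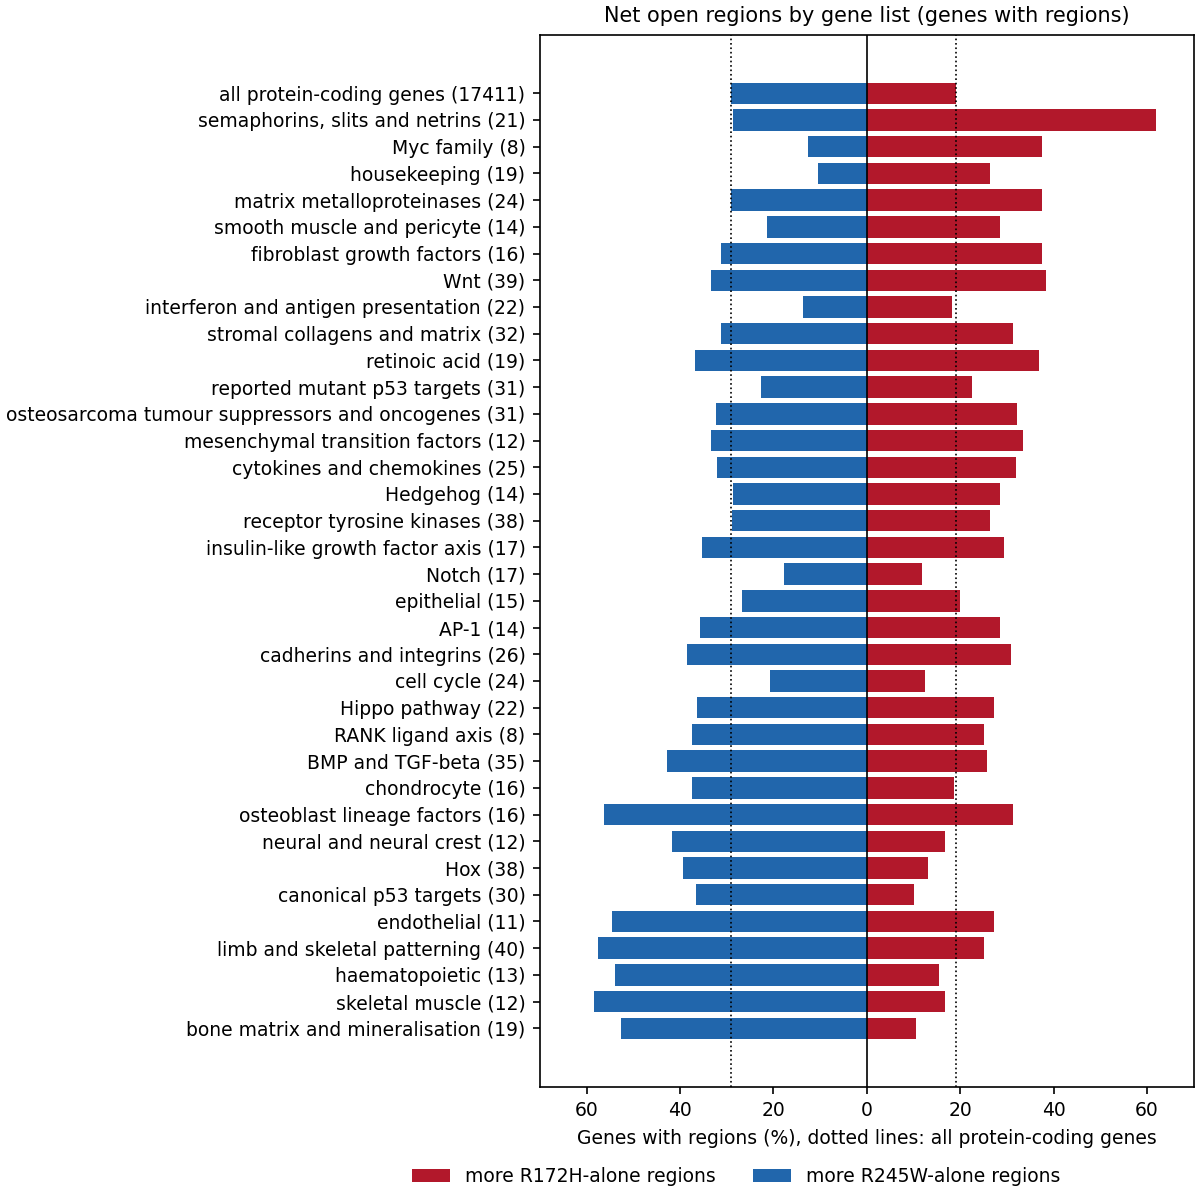
Share of genes with regions (horizontal axis, %) that had more R172H-alone (right) or more R245W-alone regions (left), for lists with 8 or more such genes (number in brackets). Dotted lines mark all 17411 genes, at 19.2% and 29.1%. Limb and skeletal patterning reaches 57.5% on the left and the guidance list 61.9% on the right.

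Whole chromosomes leaned to a side, and several of these genes lie on such chromosomes. R172H-alone regions made up 45.3% of those called in a single line, but 30.0% on chromosome 3, 34.6% on chromosome 10 and 34.7% on chromosome 4. The log2 ratio of scaled pile-up at shared regions (R172H minus R245W) was -0.45 on chromosome 3, where Sox2, Zfhx4 and Mbnl1 lie, and -0.34 on chromosome 4, with Runx3, Cnr1, Col15a1 and Ece1. On chromosome 10, with Alx1 and Unc5b but also Cradd, it was -0.18. On chromosome 16, with Runx1 and Trp63, the share was 35.5% and the ratio -0.31, and on chromosome 13, with Irx2, Mef2c and Atxn1, 37.9% and -0.17. Chromosome 18, with Gata6 and Zfp521, stood on the other side at 60.2% and 0.34. DNA copy number of the lines was not measured. With shifts centred on the median of each chromosome, 4669 and 6034 shared regions passed, 92.3% of the regions called before among them. For regions called in a single line, the part of these chromosomes was not tested.

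**Figure D5:**
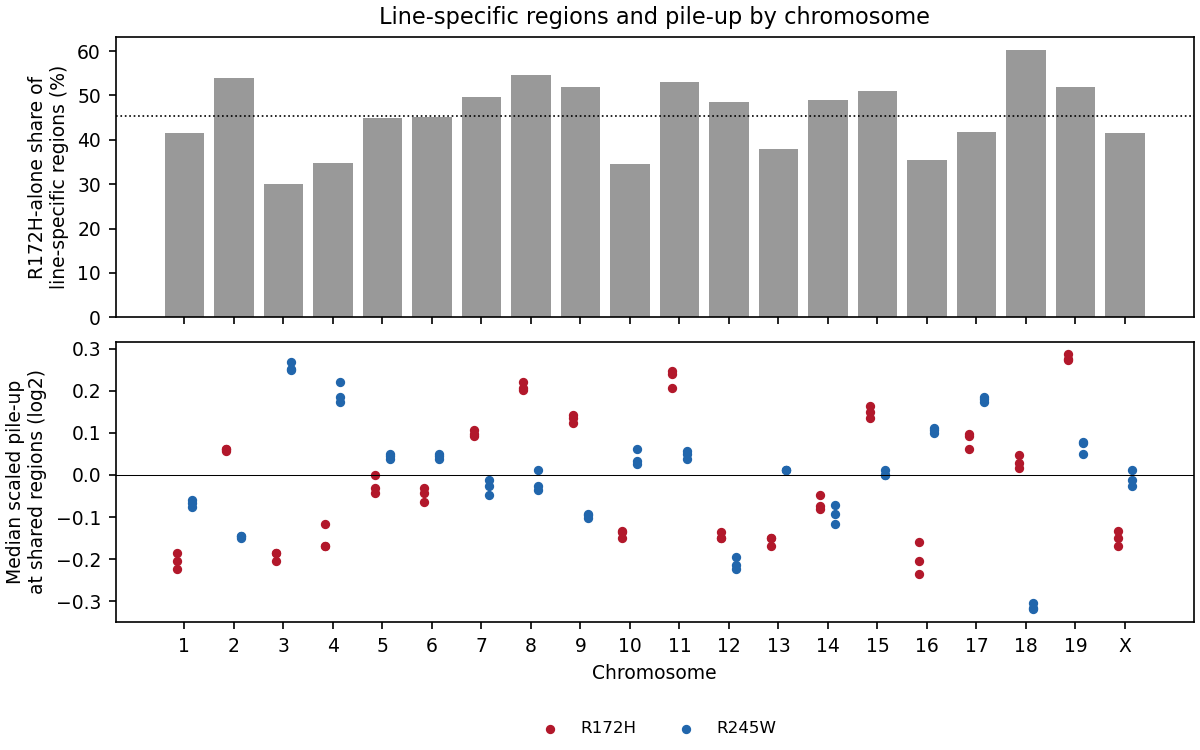
R172H-alone share of the regions called in a single line (upper panel, %, dotted line at 45.3% for all chromosomes) and median pile-up at shared regions scaled by the library median (lower panel, log2, 3 libraries per line as points), by chromosome. Chromosomes 3 and 4 have low shares and R172H points below those of R245W, and chromosome 18 the reverse.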

How the data were processed

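ATAC-seq was measured in 9 libraries of 3 lines. The submitters' processing notes name GRCm38, MACS2 2.1.0, Bowtie 1.1.2, Trimmomatic 0.33, bcl2fastq 2.17 and deepTools; for read filters and any Tn5 shift, settings were not given in the sources used here. The authors deposited 1 peak list per library. Per the file headers and values, a peak carries a score, the fold ratio at its summit, and p-values and q-values as −log10. Peaks were ranked within a list by the deposited −log10 q. Read depth is unknown, and pile-up and background at each summit were solved from the deposited fold ratio and p-value.

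Lists were merged at 1 bp or more. Gene spans, start sites and promoter sequences came from RefSeq GRCm38.p6, with start sites for 17491 of 21883 protein-coding genes. Rank shifts were tested with limma 3.58.1 (treat, variance trend, minimum 10 points, Benjamini-Hochberg over 42811 regions, threshold 0.05) in R 4.3.3. The procedure was also run on simulated normal values, drawn independently for each region and library. These lacked the bounds of a percentile and any dependence between regions, so they do not check the adjusted p-values given here. Other steps used Python 3.11.15 with pandas 2.3.3, scipy 1.17.1, numpy 2.4.6 and matplotlib 3.10.9. Alternatives covered q thresholds, list lengths, windows, call rules, rank scales, assignment distances and each library left out.

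The members, gene lists and naming rule were chosen with earlier results of these data known. The rule names Trp53 and, per direction, the 8 genes with the largest net of regions, the 8 strongest regions, the 8 strongest starts and the 8 largest shifts, plus up to 4 members per list, leaving aside predicted genes. Other genes were picked after their values were seen. Replicate numbers were not treated as pairs in the main test. Some genes that the rule names are not reported here.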

Additional observations from a re-analysis of the deposited data

How the results depend on the processing

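Counts of regions called and of genes open in a single line stayed within 1.5-fold of the reported ones under every alternative tried. Leaving out each library gave 14763 to 15979 R172H-alone and 18108 to 19298 R245W-alone regions, 343 to 368 and 547 to 585 gene starts, and 4324 to 4990 and 5545 to 6568 shifted shared regions. For regions and gene starts called in a single line, leaving out a library only relaxes the rule. Those counts could not fall, so their rise is no check of stability. The counts of shifted regions followed the minimum shift by construction: without a minimum 13311 ranked higher in R172H and 14319 in R245W, on a logit scale without a minimum 13008 and 14020, and beyond 20 points 2244 and 3094. With the replicate number as a block 4793 and 6244 passed, and the block changed no count by over 1.5-fold. Deviations of same-numbered libraries correlated at -0.000575, 0.0158 and 0.0197. Such values show no shared deviation, but they cannot tell whether same-numbered libraries were prepared together. Ranks taken among shared regions gave 6195 and 6577, and pile-up 6531 and 5176 (an alternative chosen after seeing the data, as was the use of either end of every gene). The majority of shifted regions turned from R245W to R172H with pile-up. Among values of single genes, single regions and library measures, none reversed. Of these, 87 moved while 799 did not, most of the former with the assignment distance. The replicate block leaves the estimate of a shift unchanged, so there a reversal was not possible. Unequal depth limits every statement that a region is not called.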
